A study of Homo sapiens with 6 samples.

Results

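The 10 genes described here encode the contractile machinery of smooth and cardiac muscle and 1 regulator of the muscle calcium store. They are the actins ACTA2 and ACTC1, the tropomyosins TPM1 and TPM2, cardiac troponin T (TNNT2), the myosin light chains MYL9 and MYL7, the actin-binding proteins TAGLN and CNN1, and sarcolipin (SLN). They were chosen by symbol, and all 10 were found among the 29436 gene symbols of the count table. The cells were hemogenic endothelial cells, the endothelium from which blood cells arise, derived from the established human embryonic stem cell line H1 by co-culture with AGM-S3 stroma cells. Both groups had the same line, stroma and sort. The untreated group had no added agent. For the other group the culture medium was supplemented with 100 µg/ml of alpha lipoic acid, an antioxidant and enzyme cofactor. CD34+CD43-KDR+CD144+ cells were sorted on day 8, and polyA RNA of 1000 cells per library was amplified and sequenced in 3 untreated and 3 lipoic acid libraries. The labels do not say whether the replicates came from separate cultures, so p-values reflect the library-to-library spread alone, and this may be technical. The study asked how lipoic acid promotes the output of blood progenitors.

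In muscle, force comes from myosin heads that pull on filaments of actin. Tropomyosin and the troponin complex lie along the thin filament of striated muscle and let myosin bind when calcium rises. Smooth muscle has no troponin there and instead switches myosin on by phosphorylation of its regulatory light chain. Serum response factor (SRF), with its muscle partner myocardin (MYOCD), binds a promoter element called the CArG box in many genes of this kind. Actins, tropomyosins and light chains also serve the cytoskeleton of cells that are not muscle, endothelium included, and several smooth muscle genes are active for a time in the embryonic heart.

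The cardiac and smooth muscle alpha actins are close paralogs whose counts moved in opposite directions here, so the starts of their coding sequences are shown from the GENCODE v29 transcripts, with capitals at the bases that differ between the pair.
ACTA2: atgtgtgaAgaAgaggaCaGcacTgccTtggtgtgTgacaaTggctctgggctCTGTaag
ACTC1: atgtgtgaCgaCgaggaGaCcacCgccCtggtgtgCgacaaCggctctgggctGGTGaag
Over these 60 bases 12 differed, and over the whole coding sequence of 1134 bases 164 differed (85.5% identity), with no identical run longer than 35 bases. No stretch of 75 bases in any annotated transcript of ACTA2 or ACTC1 occurred in a transcript of another gene, and among all 10 members at most 0.24% of such stretches did (TPM1). Transcripts were compared in the sense orientation only, so sequence shared with overlapping genes on the other strand was not counted.

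RefSeq promoter entries (GRCh38.p14) were found for 7 of the 10 members, namely ACTC1, MYL7, TNNT2, ACTA2, CNN1, TPM1 and TPM2. The 250 bases before each start were searched on both strands for 2 motifs. The first was the CArG box in its strict form, CCWWWWWWGG with W for A or T, which stood in 1.16% of 35116 promoters of that length. The second was CATTCC, the core of the TEAD-binding MCAT element, which stood in 11.89%. None of the matches reported here overlapped a match to the other motif. A strict CArG box was present in 2 of the 7 members, ACTC1 (1 of its 3 listed starts) and MYL7. Near matches with a G or C at a W position were not counted. CCCTATATGG and CCTTGTTTGG before 1 listed start of ACTA2 are such near matches, so the count does not show that the other members lack a CArG-like element. CATTCC was present upstream of 4, namely TNNT2, ACTA2, ACTC1 and MYL7. In ACTC1 it lay before a different start from the one with the CArG box, and in ACTA2 not every listed start had it. The 170 bases before the start follow for the pair with a CArG box, in capitals, and for TNNT2, which has none in its window, because of these cardiac genes ACTC1 rose, TNNT2 fell and MYL7 was at or near 0 counts.
ACTC1 (chr15:34795550-34795719, minus strand): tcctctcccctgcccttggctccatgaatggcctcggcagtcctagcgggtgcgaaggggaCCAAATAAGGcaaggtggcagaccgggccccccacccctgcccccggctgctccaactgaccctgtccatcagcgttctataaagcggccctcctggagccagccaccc
MYL7 (chr7:44141333-44141502, minus strand): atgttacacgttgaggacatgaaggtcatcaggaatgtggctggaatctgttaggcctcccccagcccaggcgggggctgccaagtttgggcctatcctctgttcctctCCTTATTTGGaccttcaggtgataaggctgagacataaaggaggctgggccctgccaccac
TNNT2 (chr1:201377681-201377850, minus strand): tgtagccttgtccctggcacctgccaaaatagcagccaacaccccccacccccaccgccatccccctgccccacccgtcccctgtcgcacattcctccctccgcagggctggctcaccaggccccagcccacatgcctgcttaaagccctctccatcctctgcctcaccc
The box of ACTC1 spans bases 109 to 100 before the start and that of MYL7 bases 61 to 52. These matches are descriptions of the letters, and no binding was measured.

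Total counts per library were 30041494 to 41351951. Even numbers made up 99.13% to 99.34% of the nonzero counts of 4 libraries, the lipoic acid group and untreated replicate 1. In the other two untreated libraries that share was 52.01% and 51.97%. The sources used here do not say what the even counts stand for. Halved, the totals of the 4 libraries are 15702367 to 20675975, against 30869907 and 30041494 in untreated replicates 2 and 3, so the depth behind a count differs with the group in part. For genes near 0 the even counts of those 4 libraries were therefore halved before any interval or floor was set. Levels are CPM, the count scaled to a common library size after TMM normalisation. A count of 0 over a group allows up to 0.0393 CPM without and 0.053 CPM with lipoic acid (3 counts over the group, counting error only). A list of 10 endothelial markers summed to between 12394 and 12468 CPM in untreated libraries and to between 10492 and 10812 CPM with lipoic acid, so endothelial transcripts were abundant in both groups. Of these markers 6 fell and 2 rose, beside 23.3% lower and 24.2% higher over all genes tested. ESAM, ENG and PECAM1, junction and surface proteins of endothelium, fell 1.60-fold, 1.52-fold and 1.27-fold. Of the genes of the sort gate, CD34 went from 1451 ± 40.8 to 813 ± 10.3 CPM, CDH5, which encodes CD144, from 864 ± 127 to 556 ± 18.3 CPM, and KDR from 4115 ± 230 to 4813 ± 133 CPM.

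The contractile genes did not move together. With lipoic acid, ACTC1 rose 13.5-fold while SLN fell 13.4-fold and TNNT2 fell 7.46-fold, and the members common to smooth muscle moved by less than 2-fold. Of the 10 members 9 passed the filter on low counts and were tested, 2 rose (ACTC1 and TAGLN), 6 fell (SLN, TNNT2, MYL9, ACTA2, TPM2 and TPM1) and CNN1 was not called. TNNT2 passed the filter only through the untreated group, where it is high. Over all 13780 genes tested 47.4% were called, 24.2% higher and 23.3% lower, so calls were common in this comparison. The members' median log2 fold change was -0.31, beside -0.01 over all genes tested. For 8 of the 10 members the CPM ranges of the groups were apart, beside 59.1% of genes tested. Changes of at least 8-fold were found for ACTC1 and SLN, beside 3.74% of genes tested. In bulk libraries of sorted cells, fewer cells of a type and less RNA per cell cannot be told apart.

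**Figure D1:**
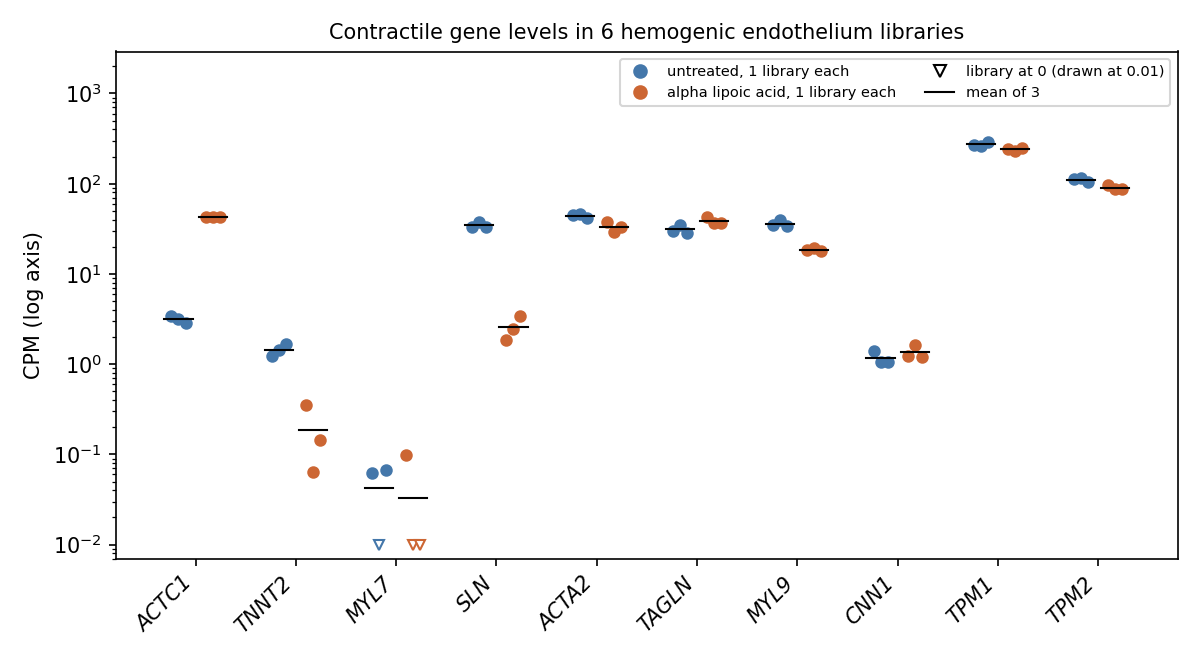
CPM on a log axis for the 10 contractile genes, with 1 point per library (3 untreated, 3 lipoic acid), a bar at each mean, and open triangles for libraries at 0. ACTC1 averages 3.15 CPM without and 42.6 CPM with lipoic acid, SLN runs the other way, and MYL7 is at or near 0 in all 6.

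ACTC1 (chromosome 15, 34788095 to 34795726, GRCh38, minus strand) encodes alpha-cardiac actin, the thin filament actin of heart muscle and of other embryonic muscle. It stood at 3.45, 3.19 and 2.83 CPM in untreated replicates 1 to 3 and at 42.6, 42.7 and 42.3 CPM in lipoic acid replicates 1 to 3. Every lipoic acid library was far above every untreated one, and the spread within the lipoic acid group was small. The mean went from 3.15 ± 0.311 to 42.6 ± 0.190 CPM (SD, n = 3 each), a log2 fold change of 3.75 with a standard error of 0.11 (adjusted p = 1.89e-08). By p value ACTC1 ranked 4 among 13780 genes, and by size of rise it ranked 238. An antisense gene covers 0.08 of its exonic length, and whether reads were counted by strand was not stated in the sources used here.

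ACTA2 (chromosome 10, 88935074 to 88991339, minus strand) encodes the alpha actin of smooth muscle. Its levels were 45.1, 46.4 and 41.6 CPM without and 37.2, 29.5 and 33.2 CPM with lipoic acid in replicates 1 to 3. All lipoic acid libraries lay below all untreated ones, with the closest pair 41.6 and 37.2 CPM. The fitted fall was 1.33-fold (adjusted p = 0.00519). Genes on the other strand, ACTA2-AS1 and FAS, cover 0.301 of the exonic length of ACTA2. ACTA2-AS1 was low and called higher (0.677 ± 0.526 to 2.26 ± 0.517 CPM), while FAS, a death receptor, was called lower (105 ± 7.01 to 90.1 ± 1.86 CPM). Their part in the ACTA2 counts was not tested.

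Among the muscle actins the makeup differed between the groups. Genes were set beside each other on a scale of CPM per kilobase of exon (RPKM). The lengths are those of all annotated exons together (2976 bases for ACTA2, 4602 for ACTC1), and the shares and ratios depend on them. On this scale ACTA2 made up 93.3% ± 0.711 of the summed level of the 4 muscle actins in untreated and 52.4% ± 2.74 in lipoic acid libraries. The share of ACTC1 went from 4.29% ± 0.292 to 43.6% ± 2.89 (SD, n = 3 each). The ratio of ACTC1 to ACTA2 was 0.0494, 0.0445 and 0.0439 in untreated and 0.740, 0.937 and 0.826 in lipoic acid libraries, so the groups did not overlap. ACTG2, the gamma actin of visceral smooth muscle, had 2 counts over all untreated libraries and 178 over the lipoic acid libraries after halving of even counts. This is a ratio of 120 with a 95% counting interval of 32.8 to 1000.45. ACTA1, skeletal alpha actin, was at 0.431, 0.831 and 0.465 CPM in untreated replicates and at 0.149, 0 and 0 CPM with lipoic acid. For ACTA1 the counting ratio was 11.4 in favour of untreated libraries (3.65 to 57.1), and its call (adjusted p = 0.0179) did not hold without lipoic acid replicate 2 (0.0583), without replicate 3 (0.0713) or within the 4 even-count libraries (0.166). Of all 6 actins the cytoskeletal ACTG1 and ACTB held most of the summed level, 71.2% and 27.8% with lipoic acid.

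**Figure D2:**
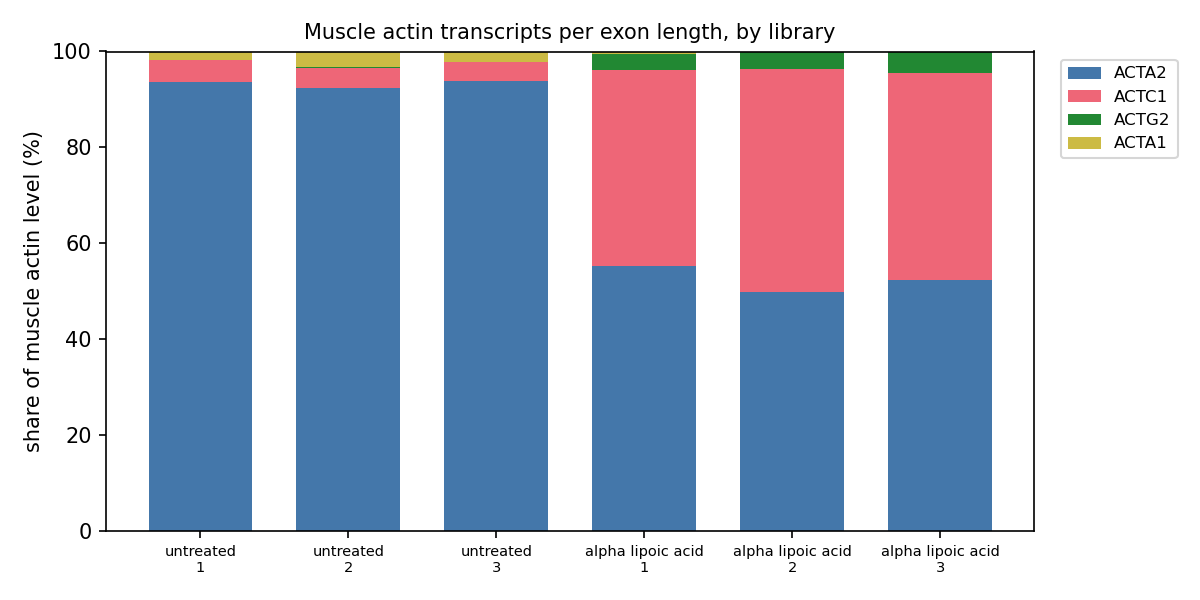
Share of each muscle actin in the summed per-length level of ACTA2, ACTC1, ACTG2 and ACTA1, in percent, with 1 stacked bar per library. ACTA2 makes up over 92% in the 3 untreated libraries and 49.8% to 55.3% in the 3 lipoic acid libraries, where ACTC1 takes most of the rest.

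The tropomyosins, which wrap along actin filaments in muscle and in other cells, fell slightly. TPM2 (chromosome 9, 35681992 to 35690121, minus strand) was at 113, 117 and 104 CPM in untreated libraries and at 96.6, 86.9 and 86.5 CPM in those with lipoic acid, a 1.24-fold fall (adjusted p = 0.00615) with no overlap between the groups. TPM1 (chromosome 15, 63042632 to 63071915, plus strand) was at 271, 261 and 291 CPM against 244, 230 and 247 CPM, a 1.14-fold fall (adjusted p = 0.0271). The TPM1 call was lost without untreated replicate 1 (adjusted p = 0.0501) or 3 (0.118), without lipoic acid replicate 1 (0.0741), 2 (0.125) or 3 (0.068), and with the 4 even-count libraries alone (0.059). Genes on the other strand cover 0.214 of the exonic length of TPM1. Counts are per gene, so its muscle and cytoskeletal isoforms cannot be told apart. Of the cytoskeletal pair, TPM3 fell by 0.23 on the log2 scale (adjusted p = 0.0133), a call lost without lipoic acid replicate 1 (0.0692) or 3 (0.0604) and with the 4 even-count libraries alone (0.0942). TPM4 was not called (-0.13, adjusted p = 0.0724) but was in 4 of 17 alternatives, the replicate block (0.0225) and the fit without untreated replicate 1 (0.0334) among them.

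TNNT2 (chromosome 1, 201359008 to 201377762, minus strand) encodes the troponin subunit that anchors the complex to tropomyosin in heart muscle. It was low throughout, with 40, 43 and 50 counts (1.23, 1.43 and 1.66 CPM) in untreated replicates and 14, 2 and 6 counts (0.349, 0.0633 and 0.145 CPM) with lipoic acid. The groups did not overlap, and the lipoic acid libraries differed among themselves more than the untreated ones did. The fitted log2 fold change was -2.90 with a standard error of 0.59 (adjusted p = 0.00275). Without lipoic acid replicate 1, the highest of its group, the fall was 12.9-fold rather than 7.46-fold (adjusted p = 0.00344). Among its troponin partners, TNNI1, the slow skeletal and fetal cardiac inhibitory subunit, fell 4.21-fold from 2.46 ± 0.772 to 0.574 ± 0.309 CPM (adjusted p = 0.00529), and it too passed the filter only through the untreated group. TNNC1, the calcium-binding subunit, had no count in untreated libraries and 22, 12 and 4 counts with lipoic acid, at least 8.70-fold higher. TNNI3, the adult cardiac inhibitory subunit, had no count in untreated libraries and 12, 0 and 2 counts with lipoic acid, so nearly all came from 1 library. Neither passed the filter.

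MYL9 (chromosome 20, 36541484 to 36551447, plus strand) encodes the regulatory myosin light chain of smooth muscle, the chain whose phosphorylation starts contraction. It was at 35.2, 39.8 and 33.6 CPM in untreated libraries and at 18.3, 19.2 and 18.0 CPM in those with lipoic acid. Each lipoic acid value was below each untreated value by a wide margin, and the fitted fall was 1.96-fold (adjusted p = 3.10e-05). Per exon length, MYL9 made up 2.68% ± 0.214 of the regulatory light chains in untreated and 1.75% ± 0.0213 in lipoic acid libraries, the rest being almost wholly the cytoskeletal MYL12B and MYL12A. MYL12B fell by 0.42 on the log2 scale (adjusted p = 0.00473) and MYL12A stood at the threshold (-0.19, adjusted p = 0.0501). MYL12A was called lower in 9 of 17 alternatives, DESeq2 (0.0401), the replicate block (0.0175) and the fit without untreated replicate 1 (0.0199) among them.

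MYL7 (chromosome 7, 44138864 to 44141332, minus strand), the atrial regulatory light chain and a marker of early cardiomyocytes, had 2, 0 and 2 counts in untreated and 4, 0 and 0 counts in lipoic acid libraries. Both groups were at or under the floor of 3 counts once even counts were halved, and no fold is given. MYL2, the ventricular form, had no count in any library.

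Of the actin-binding members, TAGLN rose slightly and CNN1 was not called. TAGLN (chromosome 11, 117199321 to 117204782, plus strand) encodes transgelin, or SM22 alpha, an early marker of smooth muscle. It was at 30.1, 34.9 and 28.4 CPM in untreated libraries and at 42.2, 36.6 and 36.3 CPM in those with lipoic acid. The groups did not overlap but were close, at 34.9 and 36.3 CPM, and the 1.23-fold rise (adjusted p = 0.0288) was lost without untreated replicate 1 (adjusted p = 0.0649) or 3 (0.103) or without lipoic acid replicate 1 (0.114). An opposite-strand gene, PCSK7, covers 0.114 of its exonic length and was not called (-0.59 on the log2 scale, adjusted p = 0.192). TAGLN2, the form of non-muscle cells, fell by 0.29 on the log2 scale (adjusted p = 0.00191).

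CNN1 (chromosome 19, 11538717 to 11550323, plus strand) encodes calponin 1, which binds actin and restrains myosin in differentiated smooth muscle. Its levels were 1.42, 1.06 and 1.06 CPM without and 1.25, 1.65 and 1.21 CPM with lipoic acid, and the groups overlapped. The log2 fold change of 0.21 had a 95% interval of -0.58 to 0.99 (adjusted p = 0.659), so at this depth a rise of nearly 2-fold would lie within the interval. CNN3 and CNN2, the calponins of other cells, fell by 0.82 and 0.39 on the log2 scale (adjusted p = 0.000345 and 0.00287).

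SLN (chromosome 11, 107707378 to 107719693, minus strand) encodes sarcolipin, a small membrane protein that inhibits the SERCA calcium pump of the muscle calcium store, mainly in atrial and slow muscle. It had 1072, 1134 and 989 counts (33.0, 37.7 and 32.9 CPM) in untreated and 74, 78 and 140 counts (1.84, 2.47 and 3.38 CPM) in lipoic acid libraries. The lowest untreated library was thus several times higher than the highest lipoic acid library. The fitted log2 fold change was -3.74 with a standard error of 0.19 (adjusted p = 6.12e-07). No annotated gene overlaps the exons of SLN, and none of its 75-base stretches occurs in another gene. ATP2A2, the SERCA pump of heart and of most other cells, rose 1.44-fold from 198 ± 5.74 to 284 ± 5.55 CPM (adjusted p = 4.98e-05). PLN, phospholamban, the other small inhibitor of that pump, was not called (4.29 ± 0.652 and 3.29 ± 1.17 CPM, adjusted p = 0.313).

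**Figure D3:**
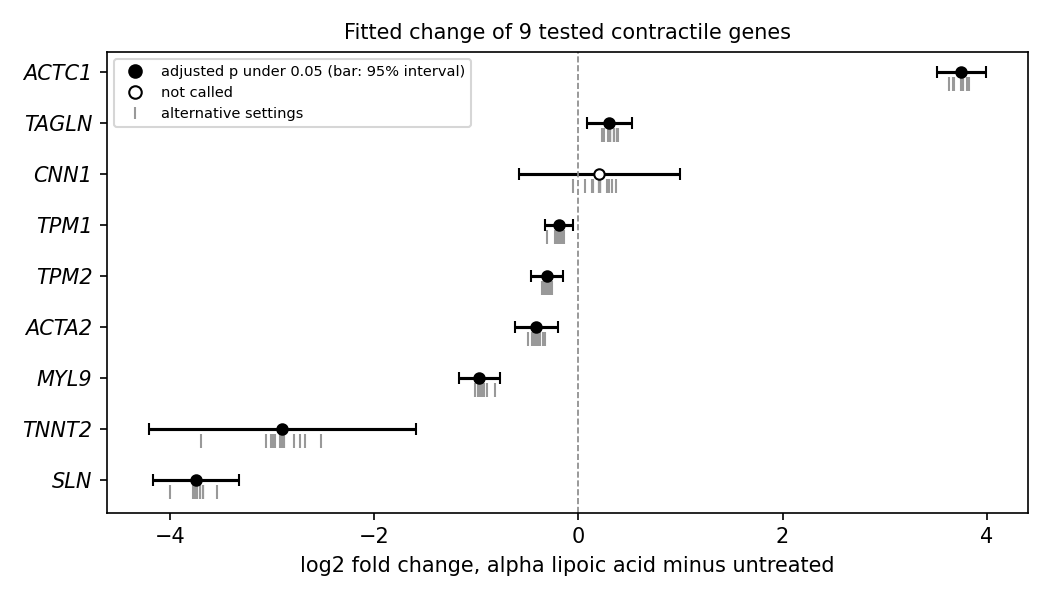
Fitted log2 fold change, lipoic acid minus untreated, of the 9 tested members, with 95% intervals (filled where called, open for CNN1) and the values under the 17 alternative settings (grey ticks). ACTC1 lies at 3.75, SLN at -3.74 and TNNT2 at -2.90, while the other 6 lie between -0.97 and 0.30.

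Per exon length, SLN stood highest among the members in untreated cells and low in the other group. In untreated libraries SLN was at 38.1 ± 3.05 RPKM, then TPM2 (34.3 ± 2.06), TPM1 (21.3 ± 1.21), ACTA2 (14.9 ± 0.823), MYL9 (12.8 ± 1.13) and TAGLN (7.95 ± 0.856). ACTC1 (0.685 ± 0.0677), CNN1 (0.409 ± 0.0702), TNNT2 (0.199 ± 0.0298) and MYL7 (0.0293 ± 0.0254) followed. The lowest SLN value (36.3 RPKM) was next to the highest TPM2 value (36.0 RPKM), and ACTA2 and MYL9 overlapped. With lipoic acid the order was TPM2 (27.7 ± 1.75 RPKM), TPM1 (18.7 ± 0.733), ACTA2 (11.2 ± 1.30), TAGLN (9.80 ± 0.855), ACTC1 (9.25 ± 0.0414), MYL9 (6.56 ± 0.218) and SLN (2.83 ± 0.855), where TAGLN overlapped with both ACTA2 and ACTC1. CNN1 (0.473 ± 0.0840), TNNT2 (0.0256 ± 0.0202) and MYL7 (0.0228 ± 0.0395) again came last. Lengths are those of all annotated exons of a gene together, 12876 bases for TPM1, which lowers the value of genes with many alternative exons.

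Among all 139 companion genes in the table, those of the lists that follow, 112 were tested. Of these, 15 passed the filter only through the group where they are high, and 7 of the 15 were called higher and 4 lower. Among the genes named here they are ACTG2, MYOCD, TRDN, NPPB, MYH3 and ABCC9, high with lipoic acid, and ACTA1, LMOD1, TNNI1 and HRC, high in untreated libraries. The counts of calls below include them, and stand beside 24.2% higher and 23.3% lower over all genes tested.

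Other genes of smooth muscle contraction moved in both directions. Of 16 tested in a list of 17, 4 rose, ACTG2 and MYOCD among them, 7 fell and 5 were not called (median log2 fold change -0.15). MYLK, the kinase that phosphorylates the regulatory light chain, rose 1.61-fold from 38.7 ± 3.69 to 62.6 ± 0.767 CPM (adjusted p = 0.000108). CSRP1, a LIM protein of smooth muscle, fell 1.42-fold (482 ± 46.4 to 341 ± 7.09 CPM). LMOD1, a nucleator of smooth muscle actin filaments, was at 1.05, 2.10 and 1.13 CPM in untreated libraries and at 0.399, 0 and 0.290 CPM in those with lipoic acid (adjusted p = 0.0207, lost at 0.062 without lipoic acid replicate 3, at 0.156 in the 4 libraries of even counts, and at 0.0641 with the replicate number as a block). DES, the muscle intermediate filament desmin, was not called (2.88 ± 0.395 and 4.31 ± 0.520 CPM, adjusted p = 0.0564). In 3 of 17 alternatives DES was called higher. MYH11, the myosin heavy chain that defines mature smooth muscle, had no count in any library.

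Of 20 other cardiac sarcomere genes 9 were tested, 4 higher and 2 lower, and 2 were higher and 2 lower without lipoic acid replicate 1 or 2. The median log2 fold change of -0.59 has no stable sign. It was 0.88, 0.37 and 0.07 without untreated replicates 1, 2 and 3, 0.15 without lipoic acid replicate 3, 0.02 with the filter at 1 CPM and 0.03 with even counts halved. MYOZ2, a Z-disc protein, rose 3.17-fold from 26.3 ± 2.47 to 83.3 ± 2.96 CPM (adjusted p = 4.97e-07). NEBL, nebulette, a nebulin relative of the cardiac Z-disc, was at 1.72, 0.399 and 1.53 CPM in untreated libraries and at 12.6, 13.0 and 11.4 CPM in those with lipoic acid, a 10.1-fold rise (adjusted p = 9.52e-05). In this list 12 genes had a mean under 1 CPM in both groups. Of these, MYL3 had 10, 15 and 8 counts in untreated replicates and 0, 0 and 2 with lipoic acid. LDB3 had 10, 0 and 4 counts in untreated replicates and none with lipoic acid. With even counts halved MYL3 was 20.7-fold lower (counting interval 3.43 to 848) and LDB3 at least 2.77-fold lower. Neither passed the filter. With no filter 5 of 18 genes of this list were called higher and 3 lower. The cardiac myosin heavy chains MYH6 and MYH7 had 2 counts and 1 count in all, each in 1 untreated library. The cardiomyocyte marker list summed to between 15.4 and 23.6 CPM in untreated and between 24.3 and 25.5 CPM in lipoic acid libraries, and 3 of its 5 tested members rose and 0 fell, namely NPPB, TTN and ACTN2. NPPB passed the filter only through the lipoic acid group, and 7 of the 12 listed markers were not tested; with no filter 4 were called higher and 1 lower of 12. The ACTN2 call (adjusted p = 0.0437) was lost in 9 of 17 alternatives, each fit without 1 library (0.0523 to 0.105) and the replicate block (0.0776) among them. The TTN call (0.0473) was lost in 5, namely without untreated replicate 3 (0.0765), without lipoic acid replicate 1 (0.0924), 2 (0.104) or 3 (0.116), and with the 4 even-count libraries alone (0.218). NPPB was also lost there (0.0796), which left 0 of the 3 called, and 1 of the 3 was called without lipoic acid replicate 1 or 2. NKX2-5, a cardiac transcription factor, was not called (8.04 ± 0.973 and 6.68 ± 0.611 CPM, adjusted p = 0.214).

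Of 8 tested calcium-handling genes 2 rose, 1 fell and 5 were not called (median 0.49). RYR2 and CASQ2 did not pass the filter. They had 20 and 22 counts over the untreated libraries and 0 with lipoic acid. With even counts halved they were at least 3.96-fold and 4.47-fold lower. With no filter 2 of 10 were called higher and 3 lower (median 0.09). Beside ATP2A2, TRDN, triadin of the calcium release complex, was at 0 in all untreated libraries. With lipoic acid it stood at 0.598, 0.633 and 0.387 CPM, which is at least 13.7-fold above the floor of the untreated group. HRC, a calcium-binding protein of the store, fell 3.08-fold from 1.70 ± 0.20 to 0.544 ± 0.326 CPM (adjusted p = 0.0183, lost at 0.0641 without untreated replicate 3, at 0.0727 without lipoic acid replicate 3 and at 0.145 in the 4 libraries of even counts).

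Among transcription regulators of muscle, MYOCD rose from near 0 while its partner SRF fell. MYOCD had 4, 0 and 1 counts in untreated and 80, 52 and 60 counts in lipoic acid libraries. With even counts halved this is 3 against 96 counts, a ratio of 43.2 with a 95% counting interval of 14.4 to 213. In lipoic acid libraries MYOCD stood at 1.99, 1.65 and 1.45 CPM. SRF went from 61.4 ± 0.832 to 42.8 ± 0.825 CPM, a 1.43-fold fall (adjusted p = 0.000144). TEAD4, a factor that binds MCAT elements, fell 2.53-fold from 25.5 ± 1.65 to 10.1 ± 0.982 CPM (adjusted p = 1.69e-05). FHL2, a LIM cofactor, fell 1.57-fold (20.0 ± 1.01 to 12.8 ± 0.501 CPM). Of 16 tested regulators 4 rose, 5 fell and 7 were not called (median -0.17), beside 24.2% higher and 23.3% lower over all genes tested. TBX20 and ISL1 did not pass the filter. TBX20 had 18 counts in untreated and 0 in lipoic acid libraries, and ISL1 4 and 48.

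**Figure D4:**
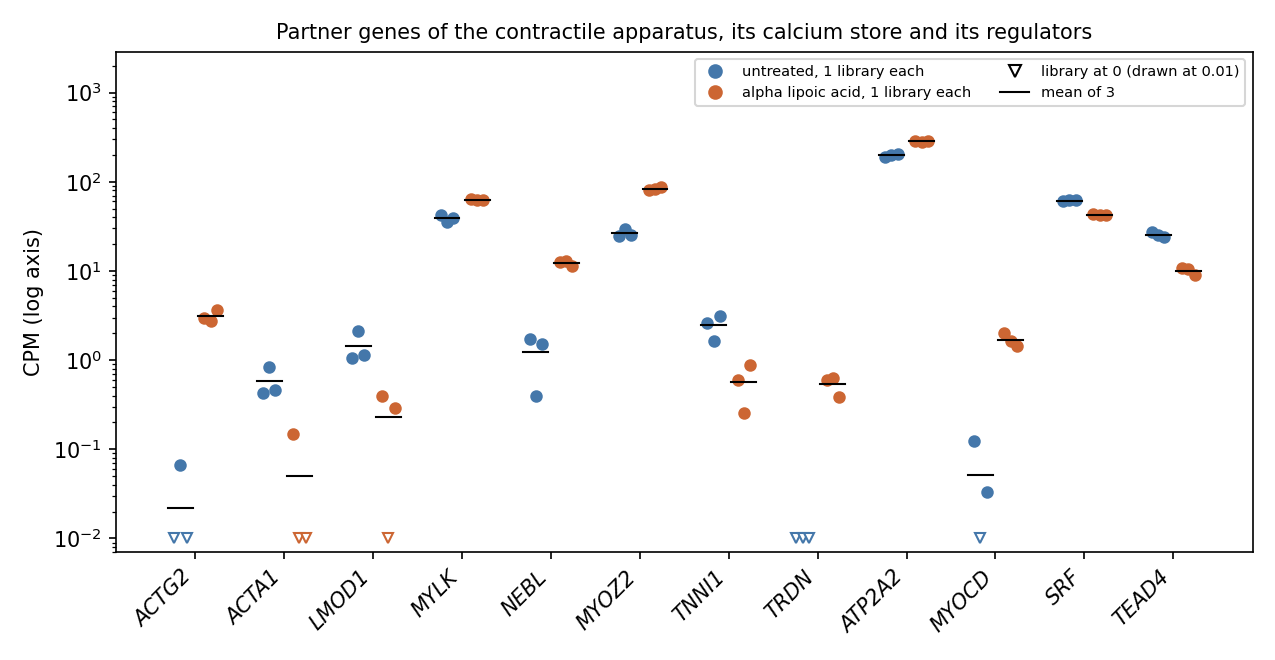
CPM on a log axis for 12 partner genes, with 1 point per library, a bar at each mean, and open triangles for libraries at 0. ACTG2, NEBL, MYOZ2, TRDN and MYOCD are higher in all 3 lipoic acid libraries, and ACTA1, LMOD1, TNNI1, SRF and TEAD4 are lower.

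Of 15 cytoskeletal relatives of the members, all tested, 8 fell and 1 rose (median -0.23), beside 23.3% lower and 24.2% higher over all genes. ACTB fell 1.53-fold from 3035 ± 347 to 1978 ± 23.2 CPM, FLNA, a filamin that crosslinks actin, 1.89-fold from 162 ± 27.6 to 85.5 ± 10.2 CPM, and ZYX, zyxin of focal adhesions, 1.49-fold. ACTG1 fell 1.29-fold (5554 ± 453 to 4313 ± 169 CPM, adjusted p = 0.000822). Of 17 genes of the RHOA pathway and myosin phosphorylation 10 fell and 1 rose, the latter being MYLK (median -0.39). LIMK2, a kinase that inactivates cofilin, fell 1.59-fold from 189 ± 9.70 to 119 ± 1.27 CPM, and PPP1CB, the catalytic subunit of myosin phosphatase, 1.31-fold. ARHGAP29, which switches RHOA off, fell 1.38-fold. For ACTB, FLNA, ZYX, LIMK2, PPP1CB and ARHGAP29 the adjusted p was at most 0.000353.

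Markers of other cells that carry contractile genes were measured beside these results. All 9 pericyte and mural markers were tested, and 6 fell and 2 rose (median -0.24), beside 23.3% lower and 24.2% higher over all genes. Without untreated replicate 3 or without lipoic acid replicate 2, 4 fell, 1 rose and 4 were not called. Their summed level ran from 1612 to 1770 CPM in untreated and from 1365 to 1405 CPM in lipoic acid libraries, and NOTCH3, ANPEP and MCAM fell 1.89-fold, 1.47-fold and 1.18-fold. ABCC9 rose 10.5-fold (0.126 ± 0.123 to 1.38 ± 0.323 CPM), 5.54-fold in the 4 libraries of even counts and 19.8-fold without untreated replicate 1. Of 13 tested mesenchymal and stromal markers 5 fell and 2 rose (median -0.25), with SNAI2, THY1 and VIM 1.79-fold, 1.51-fold and 1.26-fold lower and FBN1 1.28-fold higher. Their sum ran from 7634 to 7869 CPM and from 5894 to 6300 CPM. TWIST2 had no count in any library. Of 11 skeletal muscle markers 3 were tested and 1 rose, MYH3, the embryonic myosin heavy chain, at 0.0615, 0 and 0.332 CPM in untreated replicates and at 1.54, 1.46 and 1.21 CPM in those with lipoic acid. MYOD1, MYF5 and PAX7, the factors of skeletal muscle lineage, had no count in any library. The part of these cell types in the changes of the contractile genes was not tested.

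**Figure D5:**
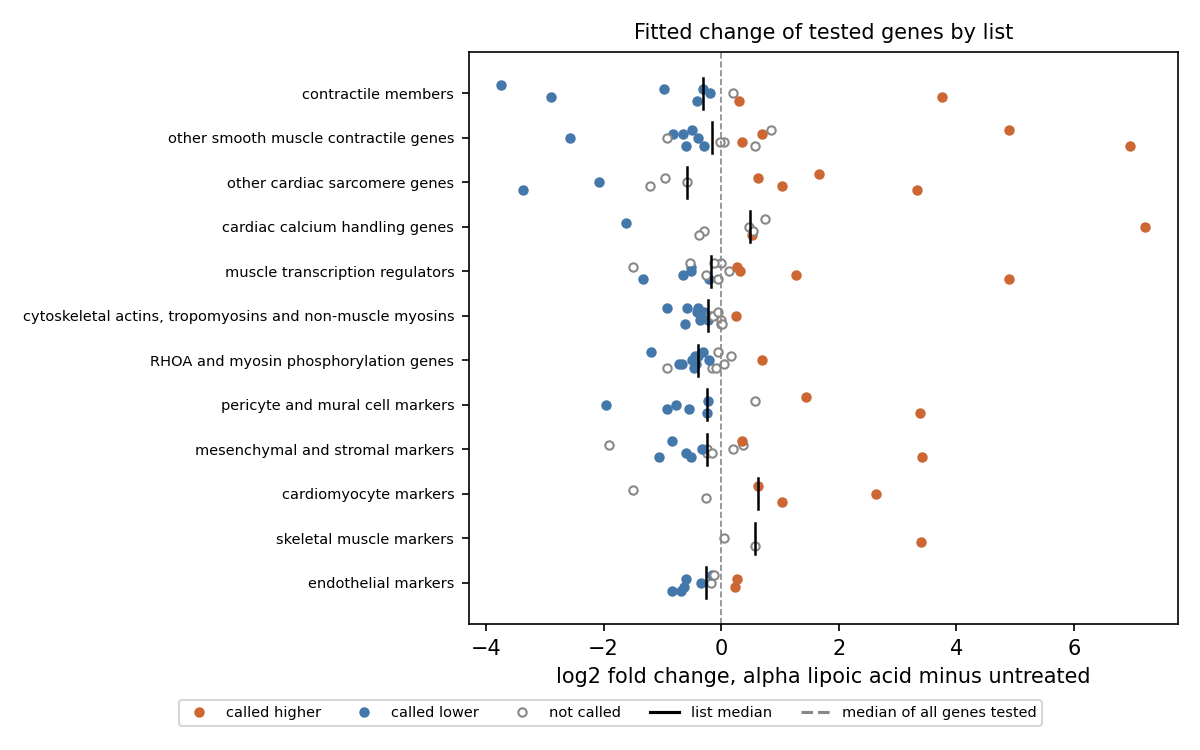
Fitted log2 fold change of each tested gene, lipoic acid minus untreated, by list, with filled points for called genes, a bar at each list's median and a dashed line at the median of all genes tested. The points at the far right (ACTG2, TRDN, MYOCD) are genes at or near 0 counts in untreated libraries, whose fitted values depend on the prior count, and the contractile list spans -3.74 to 3.75.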

How the data were processed

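The authors deposited 1 table of raw read counts by gene symbol. The submitters' processing notes name HISAT2, featureCounts, DESeq2 and hg38. Tool versions, the annotation, the strand setting and the treatment of multiply aligned reads are not given in the sources used here. Of the per-sample columns 0 were left unused. Counts of 3 untreated and 3 lipoic acid libraries (30041494 to 41351951 each) were analysed in R 4.3.3 with edgeR 4.0.16. Genes were kept by filterByExpr (13780 tested), TMM factors scaled the libraries, and the effect of lipoic acid was tested by the quasi-likelihood F test on a design of the groups alone. A gene was called where its Benjamini-Hochberg adjusted p, over all genes tested, was under 0.05. Standard errors come from the fitted change and its F value. Alternatives used limma 3.58.1, DESeq2 1.42.0 and mgcv (GC content and length trends). The fit was tested on simulated data.

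Positions, exon lengths and overlaps came from GENCODE v29 (GRCh38), in which 99.36% of symbols were found. The deposited counts are of amplified cDNA with no molecular barcodes mentioned, so counting intervals (exact binomial, 95%) and floors (3 counts) cover counting error alone. An exact permutation test of 3 against 3 libraries cannot go below p = 0.1 and was not used.

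The members and lists were chosen with earlier results of these data known. The naming rule took all 10 members, up to 4 called genes of each list with the lowest p, the genes MYH6, MYH7, NKX2-5, MYH11, ACTG2, DES and MYOCD whether called or not, and CD34, KDR and CDH5 of the sort gate. PLN, MYL2, TWIST2, MYOD1, MYF5, PAX7, GJD2, AQR, SLC35F2, ALKBH8, TNNI3, TNNC1, LMOD1, paralogs of the members and the genes overlapping members fell outside it and were named after their values were seen. RYR2, CASQ2, MYL3, LDB3, TBX20 and ISL1 were likewise named after their values were seen. Of the regulator list, 4 symbols (2 genes under old and current names) were not in the table and were not analysed here.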

Additional observations from a re-analysis of the deposited data

How the results depend on the processing

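All 8 member calls held in the same direction with RLE or upper-quartile scaling, without a filter or with one at 1 CPM, with DESeq2, limma voom or robust moderation, with even counts halved, and after removal of the trend with GC content and exon length. In the 4 libraries of even counts 7 of the 8 held, with untreated replicate 1 as the lone control, whose variance was taken to equal that of the lipoic acid group. Leaving out 1 library at a time left 1 to 2 members higher and 5 to 6 lower, the losses being TAGLN and TPM1. Over all genes such fits called 2669 to 3569 higher and 2386 to 3448 lower, and over the 11 companion lists 19 to 24 and 40 to 53, against 22 and 50 with every library. Requiring at least 2-fold left 1 member higher (ACTC1) and 2 lower (SLN and TNNT2), 1092 and 817 of all genes, and 12 and 8 of the companion lists. Of 153 member values under the alternatives 9 lost a call and 0 reversed a called direction, and of 1889 companion values 65 lost and 51 gained one and 0 reversed.

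The main fit did not pair libraries by replicate number, and the labels do not say whether equal numbers mark pairs. Deviations from the group means correlated at 0.117, 0.0982 and 0.114 across genes for same-numbered libraries 1 to 3. For differently numbered libraries the correlations ran from -0.0866 to -0.0085. Each library thus correlated best with its own number. Deviations from a group mean cancel out within the group, so these correlations are not independent of each other. They are at most a weak hint of pairing, from the data and not from the design. With the replicate number as a block, 2 members were higher and 6 lower, 3354 and 3203 of all genes, and 21 and 53 companion genes. Depth limits TNNT2, CNN1, MYL7 and the partners under 1 CPM.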

Other observations

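The chromosomal neighbours of the members with the largest changes did not share those changes in size. Of 15 other genes in the table within 500 kb of ACTC1 8 were tested, 2 higher and 1 lower. AQR, a splicing helicase 56.1 kb away, was called higher by 0.29 on the log2 scale, beside 3.75 for ACTC1, and GJD2, the nearest gene at 33.1 kb, averaged 0.0981 CPM in untreated libraries and had no count with lipoic acid. Of 8 such genes around SLN 6 were tested, 2 higher and 2 lower. SLC35F2, 71.3 kb from SLN, rose from 37.5 ± 0.792 to 60.4 ± 0.509 CPM and ALKBH8, a tRNA-modifying enzyme, from 8.52 ± 0.830 to 21.9 ± 1.87 CPM (SD, n = 3 each), against the fall of SLN. These windows were chosen after the changes were seen, and a difference between a member and its neighbours was not tested.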
